A study of Mus musculus with 36 samples.

Results

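The comparison described here set hippocampus from maze-trained mice that carry both an APP and a Tau transgene (APP/Tau, 3 libraries) against hippocampus from maze-trained mice that carry neither (WT, titled Control in the labels, 5 libraries), 8 of the 36 libraries of the study. All 8 came from females 6 months of age and were chosen by their labelled genotype and training alone. The APP/Tau mice were heterozygous for the APP transgene of the J9 line (Swedish and Indiana mutations, Sw,Ind) and for the Tau P301S transgene of the PS19 line, on a C57BL/6 background. Every group, WT included, also carried Pvalb-IRES-Cre and the RiboTag allele (PV_Cre;RiboTag), which tags ribosomes in parvalbumin neurons. The tagged fraction was not measured here: each library is the unselected input from a detergent lysate of both hippocampi, spun at 10000 g to give a post-mitochondrial supernatant. Trained mice had been handled for 3 days, trained for 5 days in the Morris water maze with 6 trials a day, tested in a probe trial 24 hours after the last trial, and killed 2 hours after that probe. The other groups used below are trained Tau mice (4 libraries), trained APP mice (3 libraries), and home-cage mice called naive, of the APP/Tau (6 libraries) and WT (6 libraries) genotypes, of the same sex, age and Cre and RiboTag background.

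The J9 line expresses mutant human amyloid precursor protein under a neuronal PDGF-B promoter, and secreted amyloid-beta made from it collects into extracellular plaques. The PS19 line expresses mutant human tau under the mouse prion promoter, and the protein becomes phosphorylated and aggregates inside neurons. Microglia gather around amyloid deposits and take on a program of lipid handling and phagocytosis called disease-associated, astrocytes around them become reactive, and both can answer type I interferon, which acts on a promoter element named ISRE to induce a shared set of antiviral genes. Myelin is made by oligodendrocytes, and training in the water maze acts on hippocampal synapses through genes induced by neuronal activity.

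Interferon-stimulated genes hold many of the values below, so the sequences before the starts of 4 of them are shown, chosen because they hold matches to the element; Irf7, described first below, had 0 matches in its 160 bases. They are RefSeq promoters of mouse build GRCm38.p6, whereas the counts were made on build mm39, and each covers the 160 bases before the annotated gene start, on the gene's own strand from 5′ to 3′. Capitals mark matches to GAAANNGAAA or to its other-strand form TTTCNNTTTC, the core letters of an ISRE, and neighbouring matches can overlap. Isg15, which encodes a ubiquitin-like modifier, lies at chr4:156200819-156200978 on the minus strand, with matches starting at -78, -72 and -66 from the gene start. Ifit1, an RNA-binding antiviral protein, lies at chr19:34640729-34640888 on the plus strand, with matches at -104 and -85. Ifit3, of the same family, lies at chr19:34583369-34583528 on the plus strand, with matches at -156 and -122. Bst2, which tethers budding virus to the cell surface, lies at chr8:71537473-71537632 on the minus strand, with matches at -130 and -124.
Isg15: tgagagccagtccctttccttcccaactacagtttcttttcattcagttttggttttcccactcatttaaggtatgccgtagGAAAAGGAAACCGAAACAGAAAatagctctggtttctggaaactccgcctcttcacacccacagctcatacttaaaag
Ifit1: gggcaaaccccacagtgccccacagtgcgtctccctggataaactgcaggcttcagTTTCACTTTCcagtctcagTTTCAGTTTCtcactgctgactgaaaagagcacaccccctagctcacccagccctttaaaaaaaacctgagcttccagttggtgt
Ifit3: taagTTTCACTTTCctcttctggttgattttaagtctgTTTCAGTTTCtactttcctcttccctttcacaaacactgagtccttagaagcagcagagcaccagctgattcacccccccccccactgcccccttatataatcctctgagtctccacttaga
Bst2: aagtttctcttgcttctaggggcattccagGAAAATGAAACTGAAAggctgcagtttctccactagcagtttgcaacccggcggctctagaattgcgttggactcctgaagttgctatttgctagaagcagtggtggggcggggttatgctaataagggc
Of the 32 interferon-stimulated genes listed, 22 had a RefSeq promoter, and 12 of those (54.5%) held at least 1 match in the 250 bases before the start. Over all 27025 genes of the promoter table, 936 (3.46%) did. A match describes letters in this window and is no evidence of binding in these mice.

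The files held raw read counts for 50559 genes. The 3 trained APP/Tau libraries held 80.4, 82.7 and 74.2 M counts (M for mega) and the 5 trained WT libraries 74.5 to 97.7 M, within the 69.2 to 124.8 M of all 36. Levels are given as CPM, counts per M of the TMM-scaled library total, and tests are edgeR quasi-likelihood tests fitted on all 36 libraries over 25382 genes. A gene is said to have been called where its Benjamini-Hochberg adjusted p was under 0.05, and verbs such as rose and fell are kept for called genes. No label states that the libraries of a group came from separate mice, and the p-values therefore reflect variation between libraries, some of which may be technical. Hippocampal genes were present in all 8 libraries, with Prox1, the dentate granule cell factor, at 86.0, 117 and 96.3 CPM in APP/Tau and 60.2 to 142 CPM in WT. Several libraries stood apart. APP/Tau library 1 had high values over many glial genes and low Pvalb (3.15 CPM, against 14 and 16 CPM in the other APP/Tau libraries and 13.3 to 19 CPM in WT), while Gad1, which all inhibitory neurons use, was 315 CPM there. WT library 4 was high in striatal genes and WT library 5 low in endothelial genes. Among the trained libraries of the single lines, the library labelled Tau replicate 4 had Prnp at the WT level (846 CPM) and 0 counts of Lamr1-ps1, both high in every other Tau-carrying library, and APP trained replicate 1 had 248 counts of Xist where the other 26 libraries used here had 10870 to 55017.

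Between trained APP/Tau and trained WT mice, 14 of 25382 genes were called (0.0552%), of which 7 were higher (0.0276%) and 7 lower (0.0276%). All 7 that fell are encoded within one stretch of mouse chromosome 16. Of the 7 that rose, 4 are on the list of transcripts that mark the Tau line, by presence or, for Prnp, by a higher level. DESeq2 called 99 genes, C3, Hmox1, Gclm, Bcas1, Lamp2 and Foxj1 among them, and without WT libraries 4 and 5, the 2 that stood apart, edgeR called 9, of which 8 were lower. At an unadjusted p under 0.05 there were 2595 genes (10.2%), 1731 higher (6.82%) and 864 lower (3.4%), and those shares are the background for the gene groups below. The median log2 fold change over all genes was -0.00813, and 48% of genes had a log2 fold change above 0. Groups did not overlap for 1012 genes higher in APP/Tau (3.99%) and for 587 lower (2.31%).

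The 7 genes that fell were N6amt1, Ltn1, Rwdd2b, Usp16, Cct8, Bach1 and Grik1, given in their order along chromosome 16 in RefSeq build GRCm38.p6. Usp16, a deubiquitinase of histone H2A, had 13.5, 13.4 and 13.9 CPM in APP/Tau, against 30.2, 29, 26.9, 24.8 and 28.1 CPM in WT. The APP/Tau values were nearly equal and all lay far under the lowest WT value, with a log2 fold change of -1.03 (SE 0.0629, edgeR adjusted p = 4.59e-13). Cct8, a subunit of the cytosolic chaperonin TRiC, had 64.5, 69.3 and 75.4 CPM in APP/Tau and 139, 137, 142, 127 and 141 CPM in WT (log2 fold change -0.98, SE 0.0655, adjusted p = 3.69e-12). Of the 15 genes of the TRiC chaperonin and its partners Cct8 was the 1 called, and their median log2 fold change was -0.01. Tcp1, another subunit, had 142, 150 and 157 CPM in APP/Tau and 145 to 156 CPM in WT. N6amt1, a methyltransferase that acts on a translation termination factor, averaged 9.67 ± 0.557 CPM in APP/Tau and 20.3 ± 1.71 CPM in WT (SD, n = 3 and 5, edgeR log2 fold change -1.07, adjusted p = 2.23e-11). Ltn1, the ubiquitin ligase of ribosome-associated quality control, averaged 34.3 ± 2.55 CPM in APP/Tau and 73.9 ± 6.15 CPM in WT (edgeR log2 fold change -1.11, adjusted p = 4.13e-08).

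Bach1, a haem-sensing transcriptional repressor, had 9.35, 8.32 and 9.38 CPM in APP/Tau and 15.6, 15.1, 17.8, 14.4 and 15.8 CPM in WT, with a log2 fold change of -0.80 (SE 0.103, edgeR adjusted p = 2.4e-05). Grik1, the GluK1 subunit of kainate-type glutamate receptors, had 8.72, 5.75 and 7.41 CPM in APP/Tau and 12.1, 12.5, 14.1, 16.2 and 17.9 CPM in WT (log2 fold change -1, SE 0.138, adjusted p = 8.65e-05). Rwdd2b averaged 4.33 ± 0.651 CPM in APP/Tau and 8.02 ± 0.313 CPM in WT, a log2 fold change of -0.89 (edgeR adjusted p = 8.47e-07). For all 7 the highest APP/Tau value was under the lowest WT value. The long noncoding RNAs B130034C11Rik and 2810407A14Rik lie in the same stretch and were not called, at log2 fold changes of -1.04 (adjusted p = 0.174) and -0.78 (adjusted p = 0.265). These 9 genes were listed because earlier analyses of this series had marked them in the APP line, and the list is no independent evidence of its direction. In trained APP mice against WT the median log2 fold change over the 9 was -0.95, and 7 of them were called, the 7 lower calls of that comparison (0.0276%). Against trained APP mice, which share the J9 transgene, APP/Tau mice had log2 fold changes of -0.07 for Usp16, -0.02 for Cct8, -0.12 for N6amt1, -0.16 for Ltn1, -0.18 for Rwdd2b, 0.23 for Bach1 and -0.01 for Grik1, and none of the 9 was called. The mouse App gene also lies on chromosome 16 and had 1570, 1650 and 1670 CPM in APP/Tau and 1480 to 1700 CPM in WT (log2 fold change 0.04, unadjusted p = 0.598).

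Among the 7 genes that rose, Prnp, the prion protein gene whose promoter drives the PS19 transgene, had 1860, 1750 and 1420 CPM in APP/Tau, against 768, 743, 781, 795 and 849 CPM in WT. Its log2 fold change was 1.09 (SE 0.147, edgeR adjusted p = 7.36e-05), and the lowest APP/Tau value was well above the highest WT value. Whether the additional Prnp reads came from the mouse gene or from prion-gene sequence in the transgene was not tested. Against trained Tau mice Prnp had a log2 fold change of -0.02, or -0.25 without the library labelled Tau replicate 4, and against trained APP mice it had one of 1.08 and was the 1 gene called in that comparison. Lamr1-ps1, an annotated pseudogene, had 263, 236 and 133 counts in APP/Tau and 0, 0, 0, 2 and 0 in WT. The predicted gene Gm32754 had 27, 33 and 26 counts in APP/Tau and 0 in every WT library, and 4930590L14Rik had 45, 30 and 15 in APP/Tau and 0 in every WT library. The call of 4930590L14Rik was lost without APP/Tau library 1 or 2 or any 1 WT library, and that of Gm32754 without APP/Tau library 2. Both were also lost with DESeq2, with the replicate number as a block and with only the groups compared. That of Lamr1-ps1 was lost with limma-voom, and all 3 calls were lost without WT libraries 4 and 5. The 3 transcripts were at 0 or 1 count in the trained APP libraries. They were high in 3 of the 4 trained Tau libraries, and the library labelled Tau replicate 4 had 0 of each. Mapt, the mouse tau gene, had 506, 561 and 575 CPM in APP/Tau and 512 to 581 CPM in WT, a log2 fold change of 0.01.

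The remaining 3 genes that rose are on neither of the lists of genes that mark the transgenic lines. Adamtsl4, an extracellular matrix protein that binds fibrillin, had 13.3, 10.0 and 11.6 CPM in APP/Tau and 5.82, 8.19, 4.68, 7.35 and 5.77 CPM in WT (log2 fold change 0.87, SE 0.168, edgeR adjusted p = 0.0227). Aga, the lysosomal enzyme that cleaves asparagine from glycoprotein sugars, had 6.65, 8.61 and 7.45 CPM in APP/Tau and 5.62, 5.33, 5.15, 5.14 and 5.15 CPM in WT (log2 fold change 0.52, SE 0.105, edgeR adjusted p = 0.0373). For both genes the groups did not overlap, but neither call survived the omission of several single libraries: Adamtsl4 was lost without APP/Tau library 1 or 3 or WT library 1, 3 or 5, and Aga without APP/Tau library 2 or 3 or any 1 WT library. Gstm3, a glutathione transferase, had 12, 11 and 60 counts in APP/Tau and 6, 5, 4, 3 and 2 in WT (log2 fold change 2.81, edgeR adjusted p = 8.03e-04). Its call rested on APP/Tau library 3, without which the log2 fold change was 1.51 and the gene was not called. The call was also lost with DESeq2, with limma-voom, with only the groups compared, and without WT libraries 4 and 5.

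**Figure D1:**
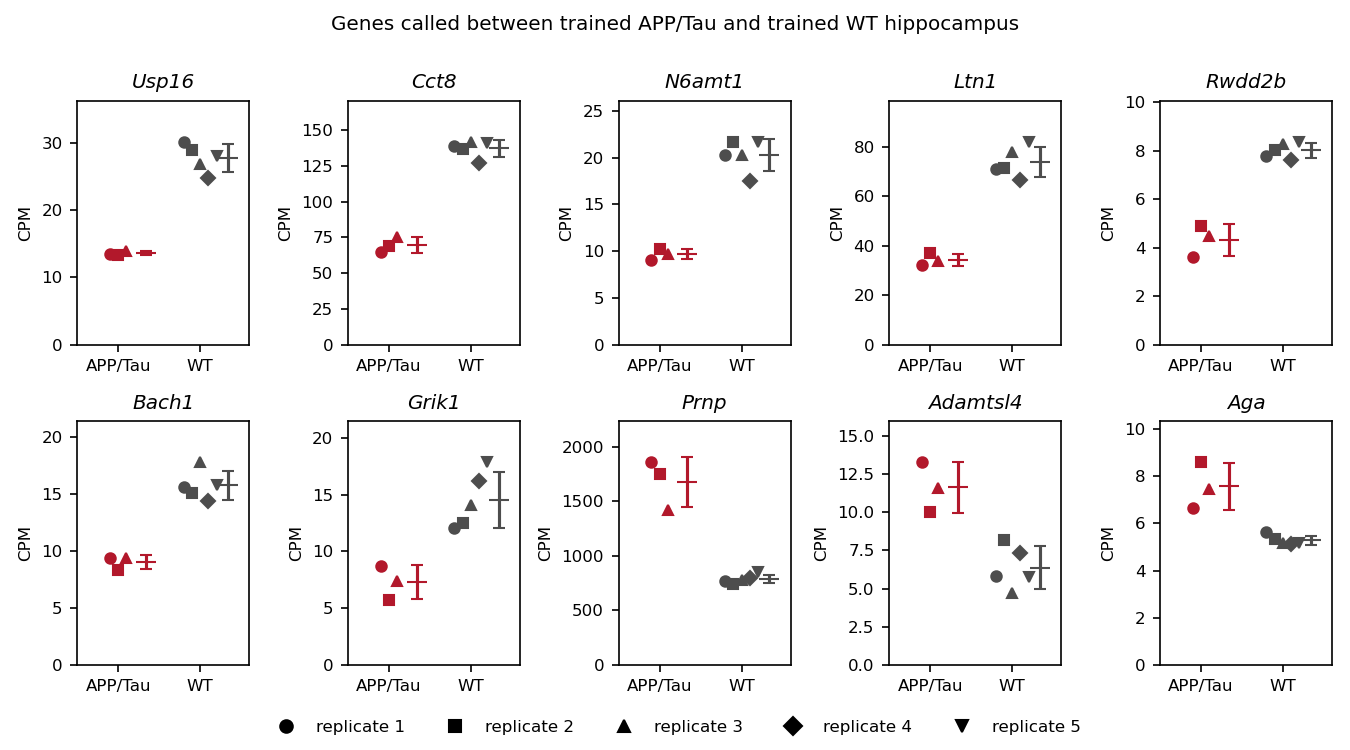
Levels of 10 of the 14 called genes in CPM (y axis from 0), with 1 point per trained library (red APP/Tau, n = 3, left; grey WT, n = 5, right) and the mean ± SD as a bar beside the points. Usp16, Cct8, N6amt1, Ltn1, Rwdd2b, Bach1 and Grik1 were lower in every APP/Tau library than in any WT library, and Prnp, Adamtsl4 and Aga were higher in every one.

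Interferon-stimulated genes were higher in trained APP/Tau mice as a group, though edgeR called none of the 32 singly. DESeq2 called 6 of them, Ifi27, Ifi27l2a, Ifih1, Ifitm3, Lgals3bp and Oasl2, and the edgeR fit on only the groups compared called 1, Ifi27. All 32 had a log2 fold change above 0, their median was 1.36, 29 had an unadjusted p under 0.05 with a higher level (background 6.82%), and 21 had groups that did not overlap (background 3.99%). Their summed level was 372, 201 and 206 CPM in APP/Tau and 122 to 154 CPM in WT. Irf7, the transcription factor that amplifies the interferon response, had 6.73, 2.06 and 2.02 CPM in APP/Tau, against 0.665, 0.905, 0.872, 1.36 and 0.732 CPM in WT (log2 fold change 2.00, adjusted p = 0.226, and 1.18 without library 1). Isg15 had 4.13, 1.42 and 1.37 CPM in APP/Tau and 0.955, 0.867, 1.08, 1.15 and 0.505 CPM in WT (log2 fold change 1.37, and 0.64 without library 1). Ifit1 had 8.35, 3.02 and 3.80 CPM in APP/Tau and 0.804 to 2.37 CPM in WT (log2 fold change 1.65, and 1.08 without library 1). In all 3 genes library 1 was the highest by a wide margin, and libraries 2 and 3 were still above every WT library.

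Bst2, whose promoter is shown above, had 8.95, 5.80 and 3.73 CPM in APP/Tau and 1.79, 2.01, 2.55, 2.81 and 1.82 CPM in WT (log2 fold change 1.5). Ifit3 overlapped between groups, with 16.3, 6.80 and 11.0 CPM in APP/Tau and 5.28, 5.73, 4.48, 7.16 and 3.28 CPM in WT (log2 fold change 1.13, unadjusted p = 0.0196). The smallest p of the list was that of Ifi27l2a, a small interferon-induced membrane protein, at 5.11, 3.04 and 3.32 CPM in APP/Tau and 1.78, 1.63, 1.5, 1.78 and 1.32 CPM in WT (log2 fold change 1.26, adjusted p = 0.121). Its 5 WT values were nearly level and library 1 again led. Ifih1, the MDA5 sensor of double-stranded RNA, had 6.70, 4.39 and 5.31 CPM in APP/Tau and 2.48 to 3.30 CPM in WT (log2 fold change 0.89, adjusted p = 0.126). Lgals3bp, a secreted glycoprotein, had 52.8, 25 and 24.3 CPM in APP/Tau and 9.80, 8.81, 9.61, 15.7 and 8.70 CPM in WT (log2 fold change 1.70). In Lgals3bp the highest WT value came from WT library 4. In every gene of this paragraph except Ifit3 the lowest APP/Tau value was above the highest WT value.

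APP/Tau library 1 carried much of the size and most of the p-values of this group. Without it the median log2 fold change over the 32 genes was 0.87, 31 were still above 0, and 8 had an unadjusted p under 0.05. Without WT libraries 4 and 5 as well, the median was 0.80 with 5 such genes. Leaving out any other single trained library of the 2 groups gave medians of 1.23 to 1.54 with 29 to 31 such genes. Oasl2, an oligoadenylate synthetase relative, shows the dependence: it had 26, 3.56 and 4.45 CPM in APP/Tau and 1.21 to 2.34 CPM in WT, a log2 fold change of 2.62 with library 1 and 1.12 without it. Ifi27 shows the opposite, with 35.9, 35.2 and 31.7 CPM in APP/Tau and 18.5 to 23.8 CPM in WT, a log2 fold change of 0.66 with library 1 and 0.63 without it.

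**Figure D2:**
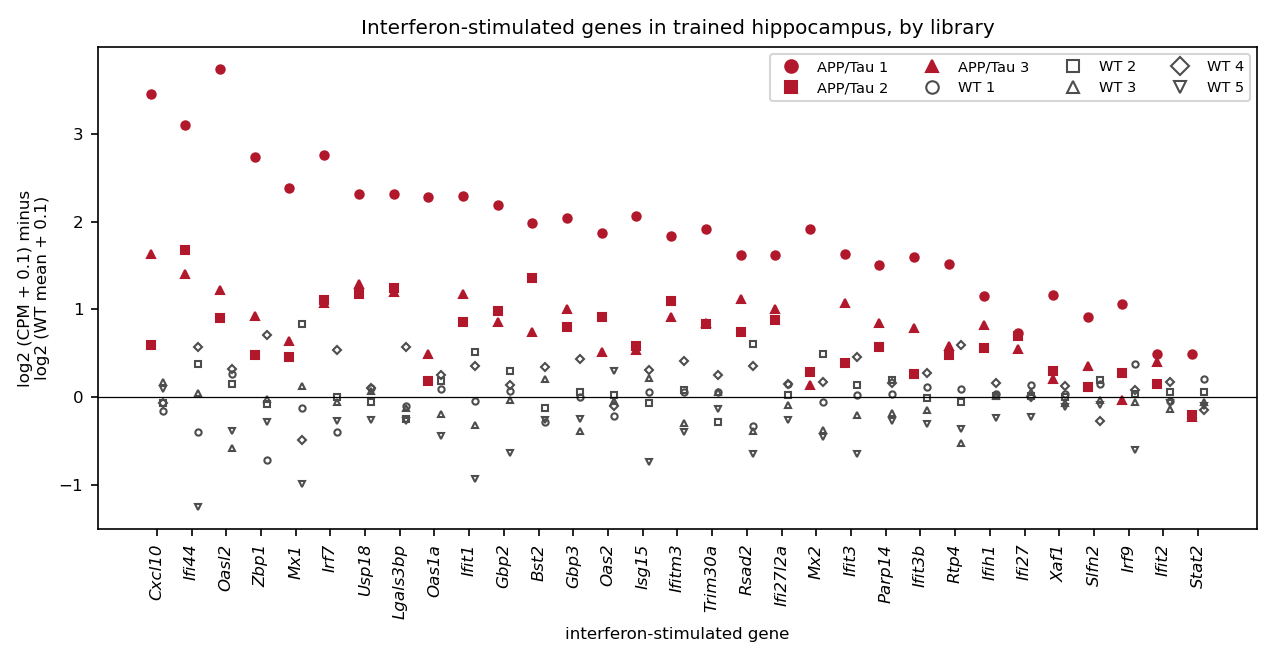
Interferon-stimulated genes (31 of the 32 tested) in order of log2 fold change (x axis), each trained library shown as log2 of CPM plus 0.1 minus log2 of the WT mean plus 0.1 (y axis; red filled APP/Tau libraries 1 to 3 left, open grey WT libraries 1 to 5 right). APP/Tau library 1 lies highest of the 3 for every gene drawn, and libraries 2 and 3 lie above the WT mean for all but Stat2 in both and Irf9 in library 3.

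Microglial genes of the disease-associated program were also higher, and here the values of 1 library dominated. Of 32 such genes 29 had a log2 fold change above 0, 23 had an unadjusted p under 0.05 with a higher level, 10 did not overlap, and the median was 0.91. Without APP/Tau library 1 the median was 0.30 and 3 genes had such a p. Clec7a, a phagocytic receptor, had 13.8, 0.410 and 0.210 CPM in APP/Tau and 0.0949 to 0.327 CPM in WT. Itgax, the integrin CD11c, had 16.9, 0.869 and 0.184 CPM in APP/Tau and 0.0879 to 0.490 CPM in WT. Cst7, a cysteine protease inhibitor, had 7.56, 0.133 and 0.131 CPM in APP/Tau and 0.0545 to 0.138 CPM in WT. For these 3 defining genes, libraries 2 and 3 lay at or near the WT level.

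Other genes of the same list were above WT in all 3 libraries. Cd9, a tetraspanin, had 76.7, 51.4 and 45.8 CPM in APP/Tau and 28.3 to 33.6 CPM in WT (log2 fold change 0.90, and 0.65 without library 1). Cd63, a tetraspanin of late endosomes, had 58.4, 54.7 and 58.3 CPM in APP/Tau and 33.1 to 41.9 CPM in WT (log2 fold change 0.64, and 0.63 without library 1). For Cd63 the 3 APP/Tau libraries were level with one another. Tyrobp, the adaptor of Trem2, had 19.3, 6.70 and 5.66 CPM in APP/Tau and 3.61 to 5.47 CPM in WT (log2 fold change 1.23, and 0.47 without library 1). Trem2, the lipid receptor of microglia, overlapped, with 23.6, 8.98 and 6.69 CPM in APP/Tau and 5.50 to 8.92 CPM in WT. Among 18 homeostatic microglial genes the median was 0.31 and 5 had an unadjusted p under 0.05, against a median of 0.05 and 1 gene without library 1, 8 genes without APP/Tau library 2 or 3 and 9 without WT library 4. P2ry12, the purinergic receptor of resting microglia, had 34.2, 36.5 and 31 CPM in APP/Tau and 27.3 to 37.6 CPM in WT. In bulk tissue, more cells of a type and more RNA per cell cannot be told apart.

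Complement and antigen presentation genes were also highest in APP/Tau library 1. Of 16 complement genes all had a log2 fold change above 0, 9 had an unadjusted p under 0.05, 5 did not overlap and the median was 0.76, but without library 1 the median was 0.32 with 1 such gene. That gene was C3, the central complement component, which had 10.9, 3.48 and 5.99 CPM in APP/Tau and 1.55, 2.21, 1.5, 2.02 and 0.989 CPM in WT (log2 fold change 2.05, adjusted p = 0.139, and 1.53 without library 1). C1qa, the microglial initiator of the classical pathway, had 103, 27.8 and 28.1 CPM in APP/Tau and 24.6 to 36.5 CPM in WT, a log2 fold change of 0.93 that was 0.01 without library 1. C4b, the classical-pathway component made by astrocytes and oligodendrocytes, had 294, 69.3 and 67.0 CPM in APP/Tau and 40.7 to 58.7 CPM in WT (log2 fold change 1.56, and 0.49 without library 1).

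Of 16 MHC and antigen presentation genes, 15 had a log2 fold change above 0, 11 had an unadjusted p under 0.05, 7 did not overlap and the median was 0.98 (0.55 with 1 such gene without library 1). H2-K1, a classical class I heavy chain, had 46.6, 23 and 21.8 CPM in APP/Tau and 11.0 to 19.3 CPM in WT (log2 fold change 1.002, and 0.56 without library 1). H2-D1, another, had 79.3, 29.5 and 36.5 CPM in APP/Tau and 16.3 to 28.1 CPM in WT (log2 fold change 1.10, and 0.55 without library 1), and H2 class I genes are close copies whose reads the counting may have split. Every APP/Tau library exceeded every WT library for both heavy chains. Tap2, which pumps peptides for class I loading, had 13.9, 11.2 and 10.9 CPM in APP/Tau and 6.46 to 8.99 CPM in WT (log2 fold change 0.53). Cd74, the class II invariant chain, overlapped, with 31.5, 4.77 and 4.70 CPM in APP/Tau and 0.958 to 4.99 CPM in WT.

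Reactive astrocyte genes had a median log2 fold change of 0.86 over 27 genes, of which 14 had an unadjusted p under 0.05 and 10 did not overlap. Without library 1 the median was 0.37 with 3 such genes. Gfap, the intermediate filament of astrocytes, had 1510, 494 and 366 CPM in APP/Tau and 305, 346, 325, 250 and 397 CPM in WT (log2 fold change 1.29, and 0.41 without library 1). Library 1 was far above the rest and library 3 lay within the WT range. Vim, another intermediate filament, had 95.8, 35.3 and 34.2 CPM in APP/Tau and 24.4 to 32.5 CPM in WT (log2 fold change 0.96, and 0.30 without library 1). Over 15 general astrocyte genes the median was 0.12 and 2 had an unadjusted p under 0.05, or 1 without APP/Tau library 3 or WT library 1, 2 or 3. Aqp4, the water channel of astrocyte endfeet, had 176, 154 and 155 CPM in APP/Tau and 109 to 150 CPM in WT (log2 fold change 0.29, unadjusted p = 0.133), and Slc1a2, the main glutamate transporter, had 2310, 2560 and 2480 CPM in APP/Tau and 2310 to 2950 CPM in WT.

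**Figure D3:**
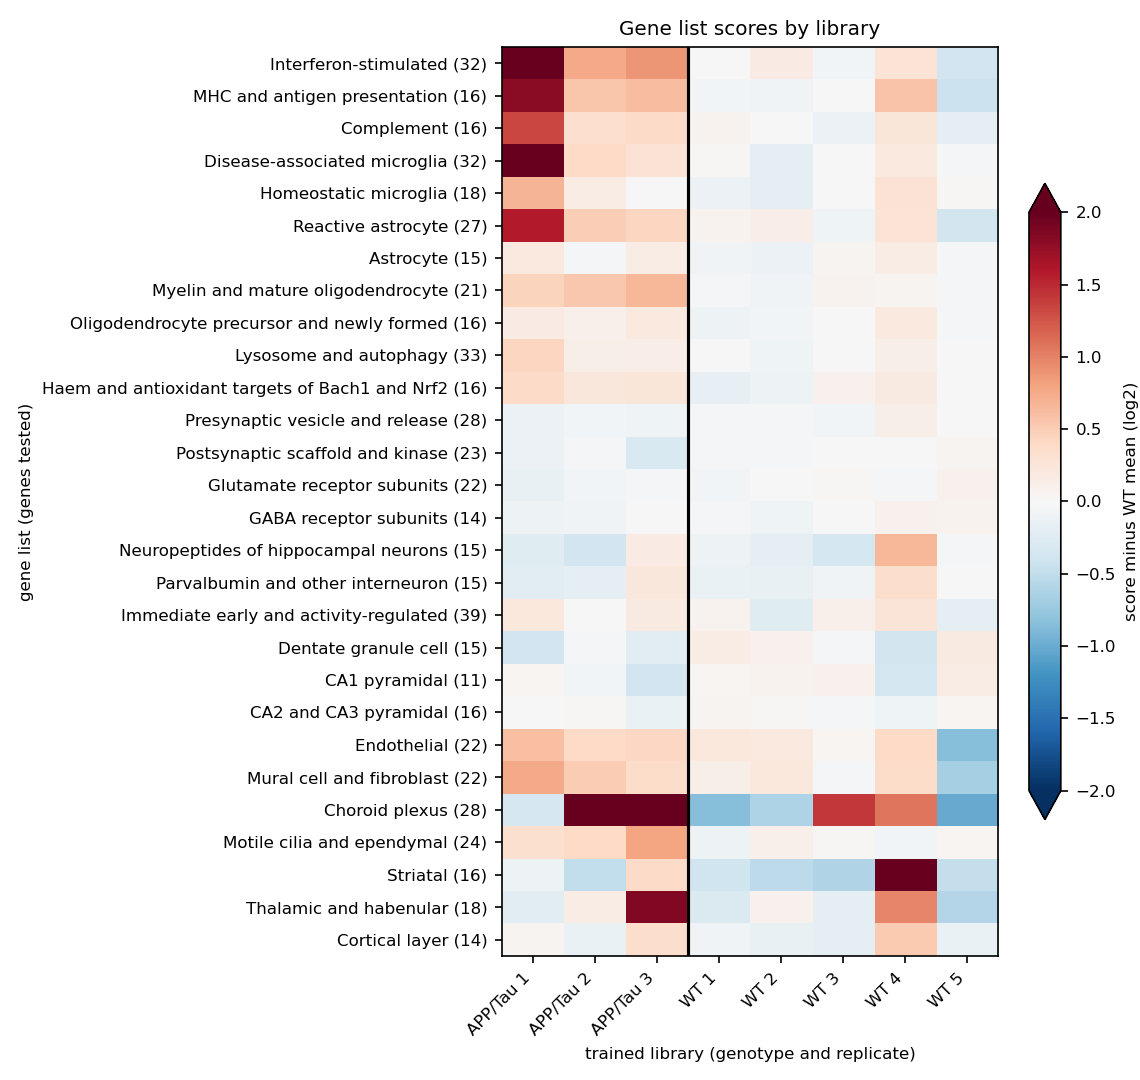
Mean log2 level of each gene list (rows, number of genes tested in brackets) in each of the 8 trained libraries (columns, APP/Tau left of the black line, WT right of it), shown as the difference from the WT mean on a log2 colour scale from -2 to 2. Immune and astrocyte lists are strongest in APP/Tau library 1, and the myelin list is raised about equally in all 3 APP/Tau libraries. The choroid plexus row is high in APP/Tau libraries 2 and 3 and in WT libraries 3 and 4. The thalamic row is highest in APP/Tau library 3 and WT library 4, and the striatal row in WT library 4.

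Myelin and mature oligodendrocyte genes were the group that was high evenly across the APP/Tau libraries. All 21 had a log2 fold change above 0, 19 had an unadjusted p under 0.05 (background 6.82%), 17 did not overlap (background 3.99%), and the median was 0.55. Their summed level was 6399, 6908 and 7052 CPM in APP/Tau and 4084 to 5009 CPM in WT. Naive WT libraries had 4200 to 6453 CPM, the highest in library 5. The count did not rest on 1 library: leaving out each trained library of the 2 groups in turn gave 14 to 19 such genes and medians of 0.48 to 0.58, and the median was 0.58 without APP/Tau library 1. Mbp, a major structural protein of compact myelin, had 2070, 2040 and 1950 CPM in APP/Tau, against 1540, 1430, 1470, 1460 and 984 CPM in WT (log2 fold change 0.55, adjusted p = 0.174). Mog, a protein of the outer myelin surface, had 55.7, 65.1 and 63.9 CPM in APP/Tau and 39.2 to 43.7 CPM in WT (log2 fold change 0.56). Every APP/Tau value of Mbp and Mog lay above every WT value. The edgeR fit called none of the 21, while DESeq2 called 5, limma-voom 1 and the edgeR fit on only the groups compared 7.

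The smallest p of the myelin list belonged to Gjb1, the oligodendrocyte gap junction protein connexin 32, at 13.5, 13.1 and 16.2 CPM in APP/Tau and 7.81, 8.08, 9.68, 8.59 and 8.51 CPM in WT (log2 fold change 0.74, adjusted p = 0.155). The Gjb1 groups were well apart. Trf, transferrin, which oligodendrocytes make in the brain, had 453, 393 and 471 CPM in APP/Tau and 208 to 263 CPM in WT (log2 fold change 0.85). Sox10, a transcription factor of the whole oligodendrocyte lineage, had 49.4, 53.0 and 51.0 CPM in APP/Tau and 32.8 to 40.0 CPM in WT (log2 fold change 0.54). Precursor genes were closer to WT. Over 16 genes of oligodendrocyte precursors and newly formed oligodendrocytes the median was 0.09 and 2 had an unadjusted p under 0.05. Pdgfra, the receptor that marks precursors, had 52.3, 56.2 and 54.8 CPM in APP/Tau and 50.9 to 57.8 CPM in WT. Bcas1, of newly myelinating cells, was the one with the smallest p, at 145, 150 and 128 CPM in APP/Tau and 50.9 to 104 CPM in WT (log2 fold change 0.67, adjusted p = 0.181). How much white matter was dissected is not recorded, and its part in the myelin values was not tested.

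Lysosomal genes were higher in part. Of 33 lysosome and autophagy genes 28 had a log2 fold change above 0 with a median of 0.19, 16 had an unadjusted p under 0.05 with a higher level and 1 with a lower level (background 3.4% lower), and 7 higher and 1 lower did not overlap. Without APP/Tau library 1 the median was 0.12 with 7 such higher genes. Lamp2, a membrane protein of lysosomes, had 107, 114 and 114 CPM in APP/Tau and 76.3 to 91.5 CPM in WT (log2 fold change 0.43, and 0.47 without library 1). Ctsd, the aspartic protease cathepsin D, had 626, 360 and 337 CPM in APP/Tau and 220 to 311 CPM in WT (log2 fold change 0.72, and 0.39 without library 1). The lower gene was Becn1, of autophagosome formation, at 103, 103 and 97.0 CPM in APP/Tau and 105 to 115 CPM in WT (log2 fold change -0.11, unadjusted p = 0.039), and its p was above 0.05 without any 1 of APP/Tau libraries 1, 2 and 3 and WT libraries 1, 2 and 5. Sqstm1, the autophagy receptor p62, had 366, 361 and 386 CPM in APP/Tau and 342 to 359 CPM in WT, a log2 fold change of 0.08.

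Of 16 haem and antioxidant genes that Bach1 represses or Nrf2 induces, 15 had a log2 fold change above 0, 2 had an unadjusted p under 0.05 (7 without WT library 4), and the median was 0.17. Hmox1, haem oxygenase and the best known Bach1 target, had 12.9, 7.75 and 7.70 CPM in APP/Tau and 4.24, 3.81, 4.77, 4.83 and 3.89 CPM in WT (log2 fold change 1.14, adjusted p = 0.139, and 0.85 without library 1). Gclm, a subunit of the enzyme that starts glutathione synthesis, had 35.5, 34.7 and 38.2 CPM in APP/Tau and 27.1 to 33.7 CPM in WT (log2 fold change 0.25, adjusted p = 0.165). Both were above WT in every library. The 160 bases before Gclm, at chr3:122245397-122245556 on the plus strand of GRCm38.p6 (RefSeq), are shown, chosen because they hold a match. The element to which Bach1 and Nrf2 bind has core letters TGACNNNGC, and the capitals mark the other-strand form GCNNNGTCA starting at -134. Srxn1 had 0 matches in its 160 bases.
Gclm: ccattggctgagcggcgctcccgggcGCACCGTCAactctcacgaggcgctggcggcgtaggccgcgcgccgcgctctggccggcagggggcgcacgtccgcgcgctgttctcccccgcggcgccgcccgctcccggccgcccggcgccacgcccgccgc
Such a match was present in 3 of the 11 listed genes with a RefSeq promoter (27.3%) and in 3112 of all 27025 genes of the promoter table (11.5%), over 250 bases. It is no evidence of binding, and Fech, the last enzyme of haem synthesis, had 53.2, 54.1 and 51.5 CPM in APP/Tau and 50.3 to 58.0 CPM in WT.

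Synaptic genes were slightly lower as groups, and none was called apart from Grik1. Of 28 presynaptic genes 22 had a log2 fold change below 0, 9 had an unadjusted p under 0.05 with a lower level (background 3.4%), 1 did not overlap (background 2.31%), and the median was -0.13. Of 23 postsynaptic scaffold and kinase genes 22 were below 0, 8 had such a p, 3 did not overlap and the median was -0.14. Dlg4, the scaffold PSD-95, had 676, 696 and 622 CPM in APP/Tau and 734, 699, 751, 783 and 808 CPM in WT (log2 fold change -0.18, unadjusted p = 0.0054). Baiap2, an actin-linked scaffold of dendritic spines, had 292, 285 and 213 CPM in APP/Tau and 296 to 355 CPM in WT (log2 fold change -0.31). Both scaffold genes were lower in every APP/Tau library than in any WT library, by a small margin. Syn1, a synaptic vesicle phosphoprotein, had 488, 488 and 442 CPM in APP/Tau and 497 to 568 CPM in WT (log2 fold change -0.17). Erc2, of the presynaptic active zone, overlapped, with 190, 207 and 155 CPM in APP/Tau and 200 to 275 CPM in WT (log2 fold change -0.29).

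Library 3 was lowest of the APP/Tau libraries for several of these genes, and it was also the library with high thalamic genes. Camk2a, the kinase of excitatory synapses, had 3440, 3530 and 2580 CPM in APP/Tau and 3490 to 3920 CPM in WT (log2 fold change -0.20). Without APP/Tau library 3 the postsynaptic median was -0.07 with 0 genes at an unadjusted p under 0.05 and the presynaptic one -0.12 with 2. The postsynaptic count was 5 without WT library 2 or 3 and 4 without WT library 5, and the presynaptic count was 5 without WT library 5. Over 22 glutamate receptor subunits the median was -0.08 and 3 had such a p with a lower level, Grik1 included (1 without APP/Tau library 3). Over 14 GABA receptor subunits the median was -0.09, with 12 below 0.

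Of 15 neuropeptide genes 11 had a log2 fold change below 0, 3 had an unadjusted p under 0.05 with a lower level and the median was -0.23. Sst, somatostatin, had 154, 131 and 116 CPM in APP/Tau and 157, 159, 166, 187 and 176 CPM in WT (log2 fold change -0.34, unadjusted p = 0.0183), with no overlap. Npy, neuropeptide Y, overlapped, with 24.4, 19.9 and 16.3 CPM in APP/Tau and 19.8 to 31.5 CPM in WT (log2 fold change -0.31). Pdyn, prodynorphin, had 11.1, 12.1 and 10.9 CPM in APP/Tau and 13.5, 13.1, 12.6, 30.2 and 16.4 CPM in WT, its highest value being in WT library 4, the library with high striatal genes. The median was -0.05 without WT library 4, with 7 of 15 genes above 0. The count was 1 without APP/Tau library 2 and 5 without WT library 2. Over 15 interneuron genes the median was -0.02 and 0 had an unadjusted p under 0.05 (3, higher, without WT library 4).

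All 15 dentate granule cell genes and all 11 CA1 genes tested had log2 fold changes below 0, with medians of -0.17 and -0.14, and 3 and 1 of them had an unadjusted p under 0.05. Plk5, a polo-like kinase of granule cells, had 8.85, 11.0 and 13.1 CPM in APP/Tau and 24.0, 18.7, 11.2, 23.8 and 12.3 CPM in WT (log2 fold change -0.71, unadjusted p = 0.00246), and the groups overlapped. Calb1, the calcium buffer calbindin, had 99.7, 106 and 100 CPM in APP/Tau and at least 108 CPM in each WT library (log2 fold change -0.17, unadjusted p = 0.0634). The dentate count was 1 without APP/Tau library 1, WT library 1 or WT library 5 and 5 without WT library 4, and the CA1 count was 3 without WT library 4, 2 without APP/Tau library 1 and 0 without APP/Tau library 3 or WT library 1, 2 or 5. Over 16 CA2 and CA3 genes the median was -0.05.

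Genes induced by neuronal activity overlapped between the genotypes 2 hours after the probe trial, and none was called. Over 39 of them the median log2 fold change was 0.08, with 22 above 0 and 1 in each direction at an unadjusted p under 0.05 (5 higher and 2 lower without WT library 4). Fos, the immediate early transcription factor, had 25.2, 14 and 31.9 CPM in APP/Tau and 19.3, 7.51, 15.1, 28.2 and 6.79 CPM in WT (log2 fold change 0.62, SE 0.453, unadjusted p = 0.179). Arc, a regulator of synaptic receptor uptake, had 162, 155 and 193 CPM in APP/Tau and 151, 72.5, 170, 175 and 75.8 CPM in WT (log2 fold change 0.40, SE 0.336). WT libraries 2 and 5 were low for both. Npas4, which responds to depolarisation, had a log2 fold change of 0.05 (SE 0.278). The gene with the smallest p on the higher side was Atf3, a stress-induced factor, at 3.46, 1.22 and 1.94 CPM in APP/Tau and 0.503 to 1.28 CPM in WT. On the lower side it was Bdnf, the growth factor, at 39.9, 46.7 and 41.3 CPM in APP/Tau and 41.6 to 54.9 CPM in WT (log2 fold change -0.21, unadjusted p = 0.0369).

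Lists of housekeeping and stress functions had medians near 0. The median log2 fold change was 0.01 over 75 nuclear genes of oxidative phosphorylation, -0.01 over 13 mitochondrially encoded genes, 0.02 over 78 ribosomal protein genes, 0.05 over 15 heat shock genes, 0.05 over 16 genes of the unfolded protein response, and 0.02 over 20 glucocorticoid-responsive genes. In these 6 lists 1 gene in all had an unadjusted p under 0.05. The mitochondrially encoded median was -0.17 without WT library 5 and 0.14 without WT library 4, whose summed levels of 17740 and 49770 CPM were the lowest and highest of the WT group, where APP/Tau had 34460, 37330 and 35220 CPM. Bace1, the beta-secretase, had 114, 120 and 124 CPM in APP/Tau and 112 to 129 CPM in WT. The median over 20 genes of APP processing was 0.05 and over 21 tau kinases and regulators -0.05. Cdk5r1, the activator p35 of the tau kinase Cdk5, had 226, 249 and 241 CPM in APP/Tau and 249 to 289 CPM in WT (log2 fold change -0.14, unadjusted p = 0.0232).

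Among the genes nearest to being called outside these lists, Serpinb6b, a serine protease inhibitor, had 1.61, 1.30 and 1.37 CPM in APP/Tau and 0.967, 0.842, 0.586, 0.510 and 0.557 CPM in WT (log2 fold change 1.05, adjusted p = 0.108). Pkd2l1, a cation channel of neurons that contact the cerebrospinal fluid, had 2.92, 3.36 and 3.03 CPM in APP/Tau and 1.46 to 2.12 CPM in WT (log2 fold change 0.89, adjusted p = 0.121). Both are low-abundance transcripts whose APP/Tau values sit close together. Micall1, an endosomal recycling protein, had 74.8, 87.2 and 88.0 CPM in APP/Tau and 62.3 to 71.3 CPM in WT (log2 fold change 0.34, adjusted p = 0.121). Tmbim1, a membrane protein of endosomes and lysosomes, had 32.7, 32.9 and 34.2 CPM in APP/Tau and 20.8 to 24.1 CPM in WT (log2 fold change 0.56, adjusted p = 0.139). These 2 genes differed by less on the log scale but at higher levels and with tight groups. On the lower side Lmo3, a LIM-domain transcriptional cofactor, had 150, 156 and 135 CPM in APP/Tau and 164 to 211 CPM in WT (log2 fold change -0.33, adjusted p = 0.139). Tiam1, an activator of the GTPase Rac at synapses, had 97.7, 105 and 105 CPM in APP/Tau and 118 to 158 CPM in WT (log2 fold change -0.39, adjusted p = 0.155). Ipcef1, which interacts with a regulator of the GTPase Arf6, had 27.3, 30.6 and 26.7 CPM in APP/Tau and 35.9 to 52.5 CPM in WT (log2 fold change -0.56, adjusted p = 0.155). In all 7 genes the APP/Tau and WT libraries did not overlap. DESeq2 called all 7, and limma-voom called Pkd2l1, Micall1 and Tmbim1.

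Genes of neighbouring tissue moved between libraries and accompany the results above. Choroid plexus genes, summed over 28, were 412, 4201 and 3872 CPM in APP/Tau and 322, 375, 1840, 1429 and 338 CPM in WT. Ttr, the transthyretin of choroid plexus, had 67.1, 2040 and 1920 CPM in APP/Tau and 46.6, 82.9, 885, 651 and 40.0 CPM in WT. The plexus was thus low in APP/Tau library 1, where interferon, complement and microglial genes were highest, and in WT libraries 1, 2 and 5. The median over the list was 1.78 with 4 genes at an unadjusted p under 0.05 and none without overlap. That count was 24 without APP/Tau library 1, 16 without WT library 3, 9 without WT library 4, 2 without WT library 1, 2 or 5, and 1 without APP/Tau library 2 or 3. Ciliary and ependymal genes had a median of 0.56 over 24, with 11 at such a p (5 without APP/Tau library 3), and Foxj1, the master factor of motile cilia, had 16, 17.6 and 25.1 CPM in APP/Tau and 9.06 to 10.9 CPM in WT.

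Thalamic and habenular genes summed to 226, 224 and 559 CPM in APP/Tau and 199 to 338 CPM in WT, and Pou4f1, a habenular transcription factor, had 0, 0.0121 and 6.02 CPM in APP/Tau and at most 0.154 CPM in WT. Their median was 0.60 with 4 genes at an unadjusted p under 0.05, 7 without APP/Tau library 1, 8 without WT library 4, and a median of -0.07 with 0 without APP/Tau library 3. Striatal genes summed to 438, 458 and 529 CPM in APP/Tau and to 417, 387, 440, 1258 and 465 CPM in WT, and Drd1, a dopamine receptor, had 24.9 CPM in WT library 4 and 3.91 to 5.65 CPM in the others of that genotype. Their median was -0.40 with 3 lower genes at such a p, and 0.39 with 6 higher and 0 lower without WT library 4. The lower count was 5 without WT library 1 or 3, 6 without WT library 2 or 5, and 1 without APP/Tau library 2. The part of neighbouring tissue in the gene groups described here was not tested. Without WT libraries 4 and 5 the interferon median was 1.34 with 27 genes at an unadjusted p under 0.05 and the myelin median 0.55 with 17. Without those and APP/Tau library 1 the interferon median was 0.80 with 5 and the myelin median 0.61 with 16, and the APP/Tau libraries then left were those with high choroid plexus genes.

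Vessel genes were higher in trained APP/Tau mice, with WT library 5 low. Endothelial genes had a median log2 fold change of 0.42 over 22, all above 0, 12 with an unadjusted p under 0.05 and 4 without overlap. The count was 4 without APP/Tau library 1, 7 without APP/Tau library 3 and 3 without WT library 5. Kdr, the main VEGF receptor, had 8.45, 9.26 and 8.66 CPM in APP/Tau and 4.72, 6.17, 7.08, 7.05 and 4.14 CPM in WT (log2 fold change 0.60, adjusted p = 0.232). Mural cell and fibroblast genes had a median of 0.57 over 22, with 21 above 0, 9 at such a p and 5 without overlap, and the count was 3 without APP/Tau library 1 and 5 without WT library 5. Col1a2, a collagen chain of fibroblasts, had 21.6, 17.7 and 18.1 CPM in APP/Tau and 9.81, 13.3, 9.76, 13.8 and 4.12 CPM in WT (log2 fold change 0.92). Acta2, smooth muscle actin, had 9.30, 5.61 and 3.94 CPM in APP/Tau and 3.16, 2.5, 1.57, 4.14 and 1.27 CPM in WT (log2 fold change 1.32).

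Home-cage mice of the same genotypes give the comparison without training, in libraries that are all different from the trained ones. Between naive APP/Tau and naive WT mice 17 genes were called (0.067%), and the 7 chromosome 16 genes above were among them, at log2 fold changes of -1.02 for Usp16, -1.06 for Cct8, -1.09 for N6amt1, -1.01 for Ltn1, -1.04 for Rwdd2b, -0.92 for Bach1 and -0.97 for Grik1. Prnp had a log2 fold change of 1.09 there, as in trained mice. Adamtsl4 was at 0.33 and Aga at 0.16 in naive mice and neither was called. The 2 noncoding genes of the same stretch were called too, so that all 9 of the list were. Mmp12, a matrix metalloprotease on the disease-associated microglial list, was called at a low level, 0.539 ± 0.77 CPM in naive APP/Tau and 0.00706 ± 0.011 CPM in naive WT mice (SD, n = 6 each, edgeR adjusted p = 0.0162). Nearly all of its reads came from naive APP/Tau libraries 1 and 6. Its counts were 139, 6, 4, 8, 0 and 134 in naive APP/Tau and 0, 0, 0, 0, 2 and 2 in naive WT. Npy was called in naive mice, at a log2 fold change of -0.55 (edgeR adjusted p = 0.0367), where trained mice gave -0.31. For the gene groups, the naive interferon median was 0.45 with 11 genes at an unadjusted p under 0.05 and a higher level (background 3.82% in naive mice), the disease-associated microglial median 0.50 with 17, the complement median 0.45 with 6, the MHC median 0.37 with 1, the reactive astrocyte median 0.39 with 7 and the myelin median 0.24 with 5. Naive APP/Tau libraries 1 and 6 had the highest summed levels of their group for the interferon, disease-associated, complement, MHC and reactive astrocyte lists. Complement genes summed to 574 and 569.5 CPM there, 185.2 to 285.5 CPM in the other naive APP/Tau libraries and 156.1 to 322.1 CPM in naive WT. Reactive astrocyte genes summed to 2421 and 1904 CPM, 586.1 to 761.2 CPM and 394.2 to 1592 CPM in the same order. On the lower side the presynaptic median was -0.08 with 5 genes, the postsynaptic -0.05 with 4, the neuropeptide -0.31 with 5 and the dentate -0.19 with 4 (background 3.66%).

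**Figure D4:**
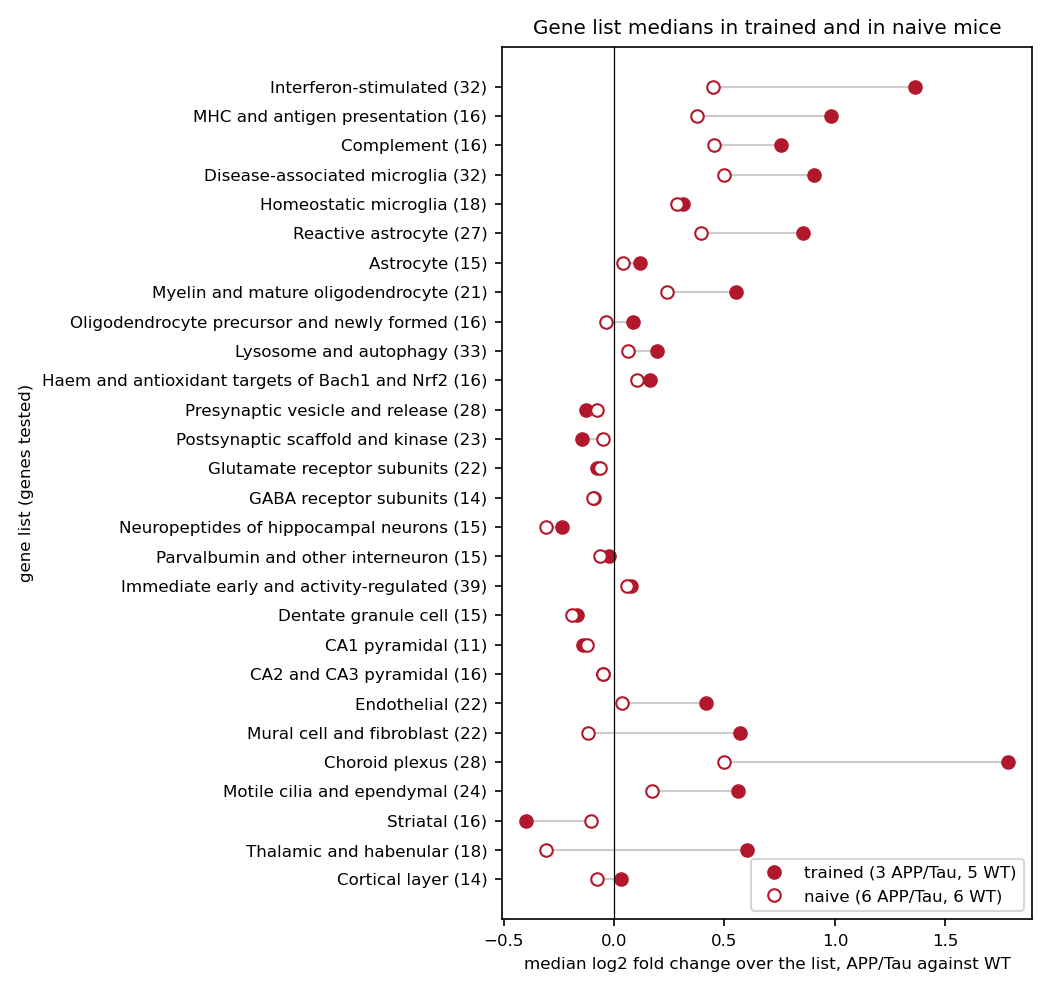
Median log2 fold change of APP/Tau against WT over each gene list (rows, number of genes tested in brackets), filled points for trained mice (3 APP/Tau and 5 WT libraries) and open points for naive mice (6 and 6). The interferon median was 1.36 in trained and 0.45 in naive mice and the myelin median 0.55 and 0.24, while synaptic lists lay just below 0 in both.

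Whether the genotype difference itself depended on training was tested as an interaction of genotype with training, and 0 genes were called (0%), by edgeR and by DESeq2. At an unadjusted p under 0.05 there were 1052 genes in edgeR (4.14%) and 1013 in DESeq2, and the smallest edgeR adjusted p was 0.713. The interferon list had an interaction median of 0.85 with 3 genes at such a p, the myelin list 0.29 with 1, the MHC list 0.60 with 1, the disease-associated microglial list 0.22 with 0 and the reactive astrocyte list 0.46 with 2, so the larger trained medians of these lists were not shown to differ from the naive ones. Vessel lists had more, with 8 of 22 mural and fibroblast genes (median 0.79) and 5 of 22 endothelial genes (median 0.32), against a background of 2.43% in the higher direction. Both counts moved with 1 library: without trained WT library 5 they were 6 (median 0.61) and 2 (median 0.17), and without naive WT library 1 they were 6 (median 0.53) and 3 (median 0.28). Thalamic genes had 5 of 18 (median 0.95) and blood genes 3 of 10 (median 0.91). The thalamic summed level was 226.2, 224.4 and 558.9 CPM in trained APP/Tau libraries. It was 221.4, 192.2, 232.8, 483.8, 473.5 and 394.5 CPM in naive WT libraries and 203.5 to 366.9 CPM in naive APP/Tau libraries. The blood count was 2 without trained WT library 5 and 2 without naive WT library 1. Acta2 had an interaction log2 fold change of 1.61 (unadjusted p = 0.0069) and Col1a2 one of 1.31. The smallest interaction p belonged to Gpr182, an endothelial chemokine-scavenging receptor, which had 3.12, 2.46 and 1.93 CPM in trained APP/Tau and 1.13 to 1.83 CPM in trained WT and an interaction log2 fold change of 1.36 (unadjusted p = 7.1e-05). It was followed by Enpp1 (0.86), Serpinb6b (1.03), Mgp (1.34) and Serpind1 (1.05). For Adamtsl4 and Aga the interaction log2 fold changes were 0.54 and 0.36, with unadjusted p = 0.016 and 0.0099.

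Trained mice of the single lines share 1 transgene each with APP/Tau mice. Against trained Tau mice, trained APP/Tau mice had 122 called genes (0.481%), 38 higher (0.15%) and 84 lower (0.331%). The 5 smallest p-values were those of Usp16 (log2 fold change -1.02), Cct8 (-1.05), N6amt1 (-1.19), Rwdd2b (-1.02) and Ltn1 (-1.09), the chromosome 16 genes. Other genes that were lower included Lmo3 (-0.45, edgeR adjusted p = 0.00628), Tiam1 (-0.53, adjusted p = 0.00813) and the postsynaptic genes Cnksr2 (-0.52, adjusted p = 0.0375) and Nlgn1 (-0.37, adjusted p = 0.0488). Aga was higher (0.45, adjusted p = 0.0488). The count depended on single libraries: it was 17 without APP/Tau library 1, 193 without APP/Tau library 2, 26 without APP/Tau library 3, 17 without Tau library 1, 22 without Tau library 2, 73 without Tau library 3 and 35 without Tau library 4, the one that lacks the Tau-line transcripts.

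By gene group, APP/Tau against Tau gave an interferon median of 0.73 with 13 of 32 genes at an unadjusted p under 0.05 and a higher level (background 8.22%), a myelin median of 0.17 with 0 of 21, and a disease-associated microglial median of 0.43 with 2 higher and 2 lower. Without the library labelled Tau replicate 4 the interferon median was 0.54 with 8 genes higher and the myelin median 0.08 with 0. These medians were not recomputed without APP/Tau library 1. Summed interferon levels were 371.6, 201.3 and 205.8 CPM in APP/Tau and 162.4, 139.1, 241.5 and 130 CPM in Tau. Presynaptic genes had a median of -0.17 with 13 of 28 lower and postsynaptic genes one of -0.20 with 12 of 23 lower (background 7.48%). Activity-regulated genes had a median of 0.25 with 11 of 39 higher and 2 lower: Fos had a log2 fold change of 1.70 (unadjusted p = 0.002), Egr1 0.91 and Nr4a1 0.83 in this comparison. Against trained WT mice, Tau mice had a median of -0.17 over the same list, with 0 higher and 8 lower (background 8.6% lower). APP/Tau mice had one of 0.08 against WT, with 1 higher and 1 lower. Choroid plexus genes had a median of 2.13 with 18 of 28 higher, and 7 higher without the library labelled Tau replicate 4.

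Against trained APP mice, trained APP/Tau mice had 1 called gene, Prnp (0.00394%), with 6.93% of genes at an unadjusted p under 0.05. The next smallest p-values were those of Dnttip2 (log2 fold change -0.78), Sspn (0.68), C3 (2.41) and Snhg6 (-0.63), none of them called. By gene group the interferon median was 1.11 with 24 of 32 genes at an unadjusted p under 0.05 and a higher level (background 3.74%), the myelin median 0.52 with 18 of 21, the disease-associated microglial median 0.64 with 10 of 32, and the postsynaptic median -0.14 with 7 of 23 lower (background 3.2%). None of these was recomputed without APP/Tau library 1 or APP replicate 1, the library with few Xist counts. Summed interferon levels were 371.6, 201.3 and 205.8 CPM in APP/Tau and 146.4, 163.1 and 158 CPM in APP. Summed myelin levels were 6399, 6908 and 7052 CPM against 3501, 4995 and 5317 CPM. Summed disease-associated microglial levels overlapped, at 4591, 3148 and 3370 CPM against 2707, 4023 and 3004 CPM. Choroid plexus genes had a median of -0.11 with 0 genes. C3 had 10.9, 3.48 and 5.99 CPM in APP/Tau, and its log2 fold change against WT was 2.05 in APP/Tau mice, 0.55 in Tau mice and -0.36 in APP mice.

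The 3 transgenic groups were each set against the same 5 trained WT libraries, so their differences from WT are not independent. Tau against WT had 25 genes called higher (0.0985%) and 52 lower (0.205%), and at an unadjusted p under 0.05 6.64% of genes were higher and 8.6% lower. APP against WT had 5.84% at such a p, 3.64% higher and 2.2% lower. The interferon median was 1.36 in APP/Tau mice, 0.53 in Tau mice with 3 genes higher and 1 lower at an unadjusted p under 0.05, and 0.06 in APP mice with 0. The myelin median was 0.55 in APP/Tau mice, 0.40 in Tau mice with 15 of 21 genes higher, and 0.02 in APP mice with 0. Summed myelin levels were 3501, 4995 and 5317 CPM in the APP libraries and 4084 to 5009 CPM in WT. The lowest was APP replicate 1, the library with few Xist counts, and the APP median was not recomputed without it. Without the library labelled Tau replicate 4, an alternative added after seeing the data, the Tau mice had an interferon median of 0.68 with 7 genes higher and 1 lower and a myelin median of 0.49 with 19 of 21 genes higher. Mbp had log2 fold changes of 0.55 in APP/Tau, 0.38 in Tau and -0.10 in APP mice, and Gjb1 of 0.74, 0.50 and 0.19 in the same order. Hmox1 had log2 fold changes of 1.14 in APP/Tau, 0.17 in Tau and 0.56 in APP mice. Library scores, the mean log2 level of a list relative to all libraries, placed the 3 trained APP/Tau libraries at 1.567, 0.304 and 0.424 for interferon genes, the Tau libraries at 0.000, -0.311, 0.893 and -0.555, the APP libraries at -0.395, -0.385 and -0.211, and the WT libraries between -0.838 and -0.175. Tau library 3 was thus above APP/Tau libraries 2 and 3 in this measure. For myelin genes the APP libraries scored -0.681, -0.103 and -0.041 and the WT libraries -0.356 to -0.202.

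**Figure D5:**
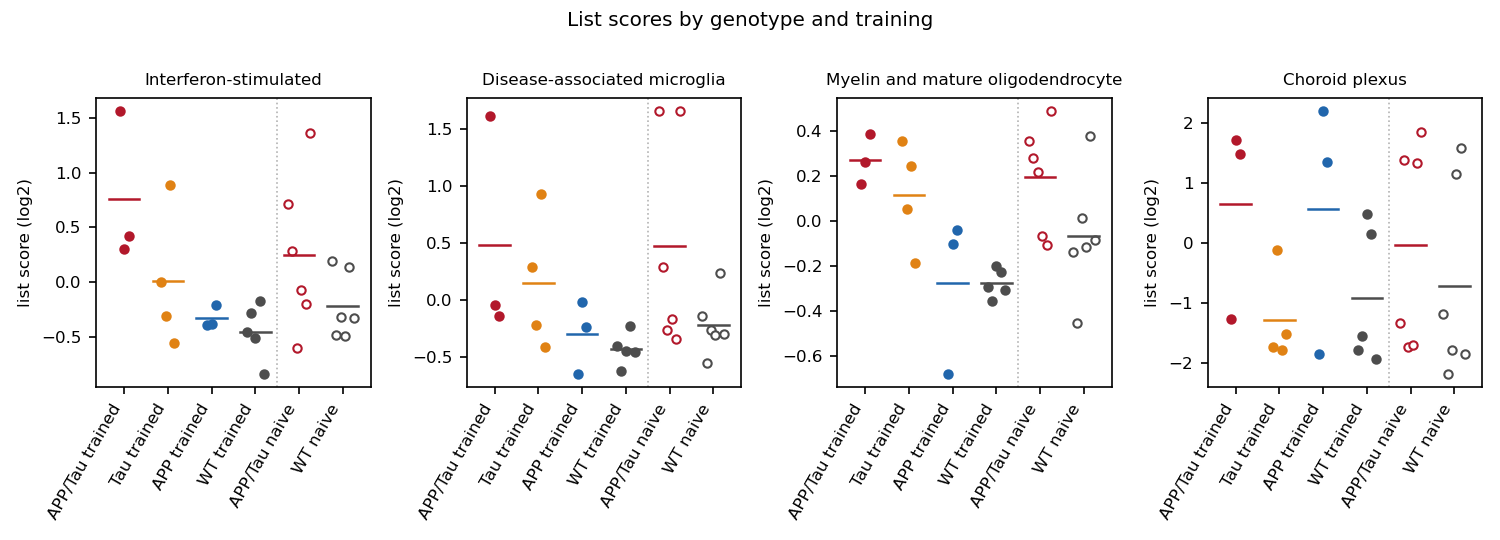
Scores (mean log2 level of a list relative to all 36 libraries, y axis) of 4 gene lists in trained APP/Tau, Tau, APP and WT libraries (filled) and in naive APP/Tau and WT libraries (open, right of the dotted line), 1 point per library with the group mean as a line. For interferon genes 1 library of the trained APP/Tau group stands at 1.567, and the others at 0.304 and 0.424. Naive APP/Tau libraries 1 and 6 stand at 0.719 and 1.362. The disease-associated microglial score reaches 1.654 and 1.659 in 2 of 6 naive APP/Tau libraries. For myelin genes all 3 trained APP/Tau libraries lie above all 5 trained WT libraries. Naive WT library 5, at 0.377, lies above trained APP/Tau libraries 1 and 2, at 0.162 and 0.261. Choroid plexus scores split libraries within nearly every group.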

How the data were processed

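RNA of 36 hippocampal input libraries was sequenced in pairs of 150 bases from poly(A) libraries made from 100 ng of RNA, per the labels' protocols. The deposited values are whole-number read counts for 50559 gene symbols, not normalised by the authors. The submitters' processing notes name Trimmomatic 0.39 and the mm39 build. How reads were aligned and counted, with which annotation and whether by strand, is not given in the sources used, so overlapping genes, antisense genes and near-identical copies are uncertain. Even numbers made up 54.7% of the counts between 1 and 10 and 50% of those above 1000, and if both mates of a pair were counted, the precision of small counts is overstated. Human transgene reads were not separated from mouse App, Mapt and Prnp.

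Of 41519 genes with a count, 25382 passed filterByExpr (minimum count 10, minimum total 15). All 36 libraries entered one edgeR 4.0.16 quasi-likelihood fit in R 4.3.3 with a mean per group and no covariate (TMM scaling, robust glmQLFit, glmQLFTest). Benjamini-Hochberg adjustment ran over all genes tested, with a threshold of 0.05. Every adjusted or unadjusted p printed comes from this fit. The comparisons were APP/Tau against WT in trained mice and in naive mice, their difference (genotype by training), and trained APP/Tau against trained Tau and trained APP mice. No 2 libraries of either trained group were alike within sampling noise (chi-square per degree of freedom 17.4 to 197). The fit was tested on simulated counts. List scores average the log2 CPM (prior count 2) of the list's genes in each library, centred on all 36. Promoters are RefSeq sequences of GRCm38.p6.

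Named genes were App, Mapt, Prnp, Usp16, Pvalb and Rpl22, and the 15 highest and 15 lowest log2 fold changes among genes called in the main comparison, leaving out predicted names and genes whose mean log2 CPM was under 0. Each direction was made up to 10 with the smallest p-values. From each list came the first 3 genes, up to 4 called genes and the smallest p in each direction, and from each other comparison the 5 smallest p-values. Other list members, and Lamr1-ps1, Gm32754 and 4930590L14Rik, were picked with their values in view. The members, lists and rules were chosen with earlier results of these data known. Alternatives were RLE size factors, no filter, the replicate number as a block, DESeq2 1.42.0, limma-voom with quality weights (limma 3.58.1), a fit on the compared groups alone, each library left out, and, added after seeing the data, the legacy form of the edgeR test and leaving out WT libraries 4 and 5 with and without APP/Tau library 1. The lists were also recomputed without the library labelled Tau trained replicate 4 and, for the interaction, without trained WT library 5 or naive WT library 1. The values of 3 genes are not reported here.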

Additional observations from a re-analysis of the deposited data

Results flagged for a closer look

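A total of 6 values were flagged, all in the group of 5 trained WT libraries, because 1 library lay far from the other 4 relative to the range of the group; groups of 3 were not tested. Of 47 list scores 5 were flagged and of 28 gene levels 1, and chance flags about 1 in 20 groups. Trained WT library 4 had a striatal score of 2.246, where the other 4 lay between -0.345 and -0.152. Its score of cortical genes was 0.548 and theirs -0.161 to -0.049, and its score of CA1 genes was -0.353 and theirs 0.046 to 0.156. The score of the transcripts that mark the Tau line was -1.343 in library 4 and -1.633 to -1.601 in the others, and Lamr1-ps1, the pseudogene among them, stood at 0.0237 CPM in library 4, from 2 counts, and at 0 in the others. Where all other values are 0, a value above 0 is always flagged, so the chance rate does not apply to Lamr1-ps1. The Tau-line score includes that gene, so its flag is not a separate result. Trained WT library 5 had an endothelial score of -1.111, where the others lay between -0.217 and 0.133.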

How the results depend on the processing

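Trained APP/Tau against WT gave 14 called genes with RLE size factors, 13 with no filter, 15 with the legacy edgeR test, 25 with limma-voom, 99 with DESeq2 (69 higher and 30 lower), 25 with only the groups compared (19 higher and 6 lower), and 9 without WT libraries 4 and 5 (1 higher and 8 lower). Leaving out each library gave 11 to 16. Usp16, Cct8, N6amt1, Ltn1, Rwdd2b, Bach1 and Prnp were called under every alternative, and Grik1 under all but the fit on only the groups compared. With the replicate block 12 genes were called, 10 of them shared with the fit without it. Deviations from the group mean had correlations of 0.168, 0.025 and 0.035 between same-numbered APP/Tau and WT libraries. Of the 3 APP/Tau libraries 1 correlated best with its own number. These correlations cannot decide whether same-numbered libraries shared a batch. The block gave 14 calls in naive mice, 0 for the interaction and 1 against APP, and moved the count against Tau by less than 1.5 times. Naive mice gave 11 with only the groups compared and 14 to 20 with a library left out. The interaction gave 0 throughout. Against Tau there were 41 with no filter, 634 with DESeq2, 480 with limma-voom, 88 with only the groups compared (57 higher and 31 lower) and 17 to 193 with a library left out. Against APP there were 2 with RLE, 6 with DESeq2, 3 with the legacy test, 0 with no filter, limma-voom or only the groups compared, and 0 to 4 with a library left out, 4 being without Tau library 4. The cause of these differences was not tested. Some list medians changed sign with 1 library left out, among them the striatal, thalamic and mitochondrially encoded ones. Low counts limit 4930590L14Rik, at 15 to 45 counts per APP/Tau library.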
